A study of Homo sapiens with 27 samples.

Results

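The second SIRT3 hairpin was compared with the control hairpin in Karpas422, an established diffuse large B-cell lymphoma (DLBCL) cell line, across the genes expressed in these cells. The members were genes that reached 1 CPM (CPM being a read count scaled to library size) in 3 or more of its 6 libraries, which kept 11071 of the 27115 genes listed. The same filter over all 27 libraries of the series kept 13076 genes. The series sequenced RNA of 3 DLBCL lines, the others being OCI-LY1 and HBL1, with a control hairpin or either of a pair of SIRT3 hairpins, in 9 groups of 3 replicates, to ask which transcripts depend on SIRT3. The groups used here were Karpas422 shCtr (labelled shCTRL, a scramble hairpin) and Karpas422 shSIRT3-2, each taken 8 days after lentiviral delivery of the hairpin from a pLKO.1 vector. By the study's methods the vector also expressed YFP and a puromycin resistance gene, and infected cells were selected with puromycin. No other treatment is given for either group. Both groups carried a virus, so an uninfected state was not part of the comparison, and all cells were of 1 line.

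SIRT3 is a deacylase of the mitochondrial matrix that removes acetyl groups from metabolic enzymes, among them enzymes that feed glutamine carbon into the TCA cycle. ATF4 is a bZIP transcription factor whose translation rises when amino acids run short. It pairs with C/EBP proteins and turns on genes for amino acid import, for the synthesis of asparagine, serine and cysteine, and for the charging of tRNAs. Germinal centre B cells, from which DLBCL arises, are held in their state by factors such as BCL6, PAX5 and BACH2, whereas PRDM1 drives exit toward the plasma cell.

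The 6 libraries held between 44874232 and 52524136 reads on genes, so that 1 read was worth about 0.01 CPM. Some libraries stood apart from the others of their group. In shSIRT3-2 replicate 3, 321 of the genes tested (2.9%) lay more than 2-fold from both other replicates, against 3 to 14 genes in the other shSIRT3-2 libraries and 11 to 105 in the control libraries. Control replicate 1 stood apart at interferon-stimulated genes, where its median member lay 1.18 (log2) above the control mean, while control replicates 2 and 3 lay at −0.27 and −0.87. Named results that 1 of these libraries moved past a threshold or by over 1.5 times are given without it too. Of the B-cell markers, all 10 were at or above 1 CPM in each library. None of the 11 myeloid markers reached 1 CPM in any library, and their summed level was at most 0.761 CPM. Of 12 T and NK cell markers, 3 were at or above 1 CPM in each control library and 2 in each shSIRT3-2 library. Their summed level was 38.9 to 45.7 CPM with shCtr and 32.4 to 41.7 with shSIRT3-2. CD3D was called lower, but not without any one of the control libraries (limma adjusted p from 0.065 to 0.099). Of 11 epithelial and fibroblast markers, DCN (decorin, a matrix proteoglycan) was the only one at or above 1 CPM, at 401 to 423 CPM with shCtr and 104 to 280 with shSIRT3-2. The labels do not say whether replicates were separate cultures, so p-values measure the spread between these libraries, which may be technical.

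SIRT3 itself (ENSG00000142082, hg19 chr11:215030-236931, minus strand) stood at 9.99, 9.14 and 10.2 CPM in the control libraries and at 6.24, 5.32 and 4.41 CPM with shSIRT3-2. The groups did not overlap, and the hairpin left 54.4% of the control mean. The log2 fold change was −0.88 (SE 0.15, limma, Benjamini-Hochberg adjusted p = 0.0076). The fall was smaller than with shSIRT3-1 in the same line, by 0.99 on the log2 scale (adjusted p = 0.0025), and smaller than with shSIRT3-2 in HBL1, by 1.27 (adjusted p = 0.0025), whereas the difference from OCI-LY1 was 0.20 (adjusted p = 0.72). Of the other 5 sirtuins that could be tested, none was called.

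Of the 11071 genes, 1520 (13.7%) passed a fold change above 1.5 with an adjusted p under 0.05, with 974 lower (8.8%) and 546 higher (4.93%). Falls were also larger than rises. The median called fall was −0.94 and the median called rise 0.78 on the log2 scale, and 90 genes fell past 4-fold while 19 rose past it. The median log2 fold change over all genes tested was 0.00. The groups did not overlap for 5200 genes (47%), including each of the 1520 called. With quantile normalization the lower share of the calls was 56% instead of 64.1%.

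**Figure D1:**
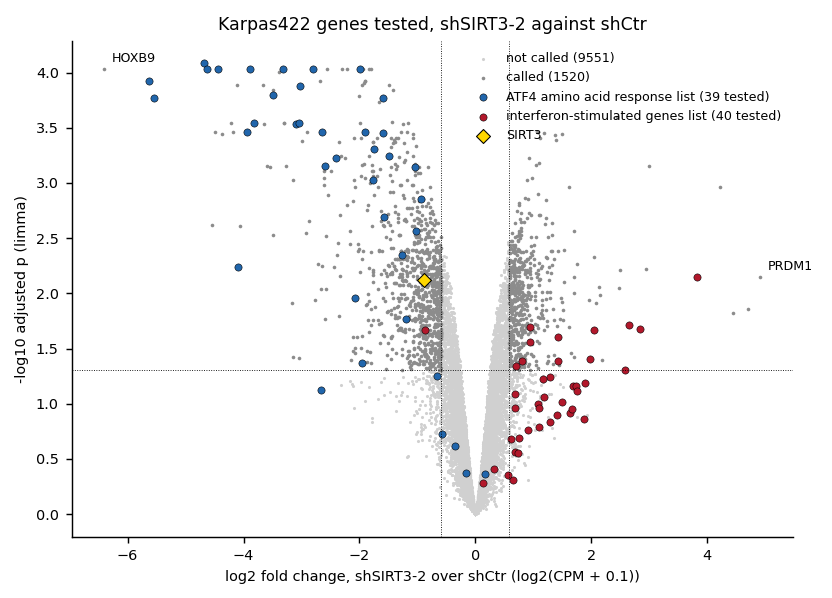
Each point is 1 of the 11071 genes tested, with the log2 fold change of shSIRT3-2 over shCtr on the x axis and −log10 of the limma adjusted p on the y axis; dotted lines mark the 1.5-fold and 0.05 thresholds. The ATF4 amino acid response list (blue) lies on the left, with 33 of 39 members called lower, the interferon-stimulated list (red) lies mostly on the right, and the gold diamond is SIRT3 at −0.88.

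The ATF4 amino acid response had the highest share of members called among the lists with at least 10 tested genes. Of the 39 listed genes tested, 33 fell, none rose and 6 were not called, with a median of −2.07 against 0.00 over all genes, of which 8.8% were called lower. Between 31 and 34 of the same 39 fell when any single library was left out. In 35 of them each shSIRT3-2 library lay below each control library, which held for 24.3% of all genes. ATF4 mRNA itself stood at 329, 372 and 278 CPM with shCtr and at 122, 120 and 104 with shSIRT3-2. The groups did not overlap, and the log2 fold change was −1.49 (SE 0.13, adjusted p = 0.00057).

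Of the 16 genes grouped as regulators in this list, 15 fell, with a median of −2.33. The group is broad and includes ATF4 itself, CHAC1, NARS and VLDLR. NARS, a tRNA synthetase, is also counted among the cytosolic synthetases below. CHAC1, which breaks down glutathione, read 67.4, 59.3 and 85.1 CPM with shCtr and 1.33, 2.55 and 0.796 with shSIRT3-2, a log2 fold change of −5.54 (SE 0.36, adjusted p = 0.00017). ATF5, a bZIP factor close to ATF4, read 576, 935 and 524 CPM with shCtr and 48.7, 43.2 and 41.7 with shSIRT3-2 (log2 −3.88, adjusted p = 9.3e-05). Each shSIRT3-2 library of both genes lay more than 10-fold below each control library. JDP2, a bZIP repressor, fell by 4.44, ATF3, a stress-induced bZIP factor, fell by 3.82 and SESN2, a leucine-sensing inhibitor of mTORC1, fell by 2.80 on the log2 scale. CEBPB, a C/EBP partner, had a log2 fold change of −3.93. The member of this group that was not called was VLDLR, a lipoprotein receptor (log2 −0.17, adjusted p = 0.43). DDIT4, an mTORC1 inhibitor, was called at −1.96, but its shSIRT3-2 values of 140, 51.8 and 21.6 CPM were spread widely. It was still called without shSIRT3-2 replicate 1, whereas leaving out any other library put its adjusted p between 0.0501 and 0.12, with log2 values from −2.08 to −1.3.

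Of the 10 enzymes of amino acid synthesis, 9 fell, with a median of −2.71. ASNS, which makes asparagine from aspartate and glutamine, read 547, 418 and 587 CPM with shCtr and 50.4, 56.6 and 32.4 with shSIRT3-2 (log2 −3.50, SE 0.22, adjusted p = 0.00016). All enzymes of serine synthesis in the list fell. PHGDH, its first enzyme, read 38.2, 36.6 and 32.0 CPM with shCtr and 3.76, 3.71 and 0.517 with shSIRT3-2 (log2 −4.09, SE 0.64, adjusted p = 0.0057), where replicate 3 lay far below the other libraries. Without that library the value was −3.22 (adjusted p = 7.0e-05). PSAT1, the second enzyme, fell by 3.31, PSPH, the third, by 1.75, and the mitochondrial folate enzymes SHMT2 and MTHFD2 by 1.76 and 1.99 on the log2 scale. Over the wider serine and one-carbon list, 6 of 17 genes fell and 1 rose, where 8.8% of all genes fell and 4.93% rose. The falls include PHGDH, PSAT1, PSPH, SHMT2 and MTHFD2, already counted above, so this is not a separate result. The riser was FPGS, which adds glutamates to folates (log2 0.69). CTH and CBS, the enzymes that carry sulfur from homocysteine to cysteine, fell by 3.02 and 3.10, and ALDH18A1, which starts proline synthesis, stood at 0.16 (adjusted p = 0.43).

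Of the 10 import genes, 7 fell, with a median of −1.3. SLC6A9, a glycine transporter, read 23.1, 26.6 and 23.1 CPM with shCtr and 0.668, 1.05 and 0.856 with shSIRT3-2, the smallest adjusted p of all genes (log2 −4.69, SE 0.18, adjusted p = 8.2e-05). SLC43A1, a carrier of large neutral amino acids, fell by 3.04, the glutamine carrier SLC1A5 by 1.90 and the arginine carrier SLC7A1 by 1.59. The members not called were the cystine exchanger SLC7A11 (−0.57, adjusted p = 0.19), SLC7A5 (−0.66, adjusted p = 0.056) and SLC1A4 (−0.35, adjusted p = 0.24). Over all 18 amino acid transporters tested, 8 fell and 3 rose, where 8.8% of all genes fell and 4.93% rose. The falls include SLC6A9, SLC43A1, SLC1A5 and SLC7A1 of the import genes above, so this is not a separate result. The risers were SLC43A2 (log2 1.76), the taurine carrier SLC6A6 (0.81) and SLC38A7 (0.81). Of the secreted factors, INHBE, which encodes an activin subunit, read 58.4, 60.3 and 47.3 CPM with shCtr and 1.11, 1.62 and 0.559 with shSIRT3-2 (log2 −5.63, SE 0.32, adjusted p = 0.00012). ADM2, a peptide hormone, fell by 4.63 from a mean of 4.17 CPM, and VEGFA was not called (−2.67, adjusted p = 0.075), with 43.7, 11.1 and 1.85 CPM in the shSIRT3-2 libraries. The 7 other listed genes, among them FGF21 and GDF15, were under the level filter.

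**Figure D2:**
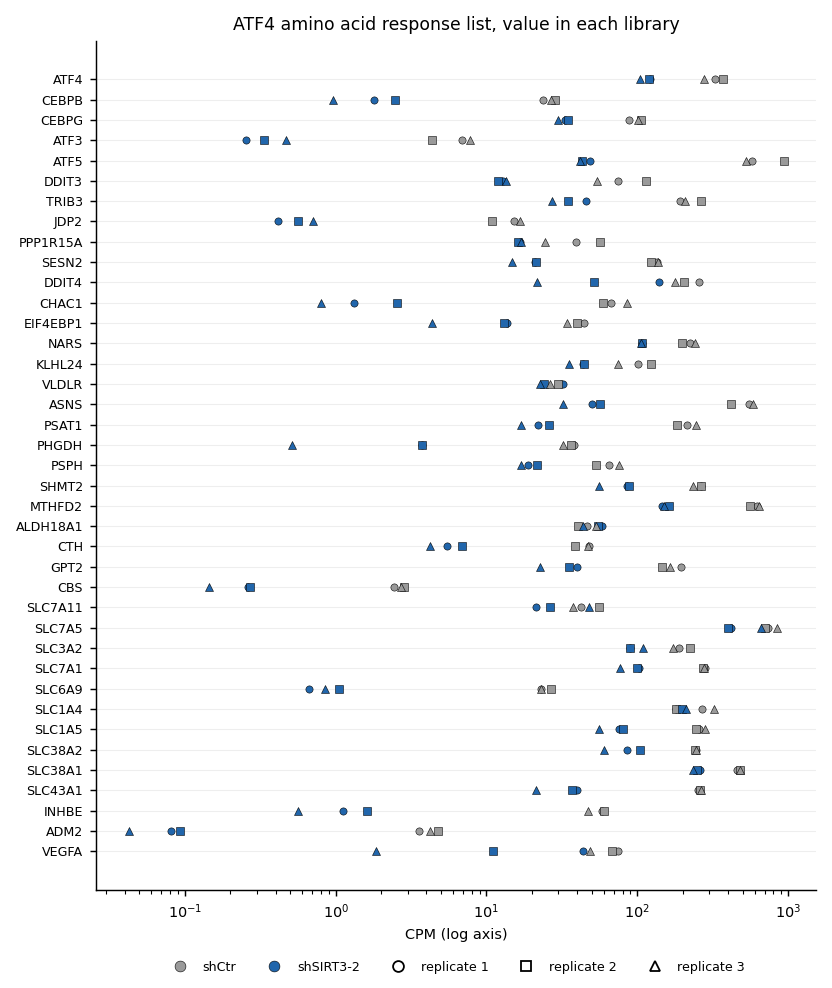
CPM on a log axis for the 39 tested members of the ATF4 amino acid response list in each library, grey for shCtr and blue for shSIRT3-2, with the marker shape giving the replicate. In 35 of the 39 genes each blue point lies left of each grey point, among them CHAC1 at 0.796 to 2.55 against 59.3 to 85.1 CPM.

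ATF4 and its C/EBP partners bind a composite element whose core reads TGATGNAA. This core was searched on both strands of the 250 bases before each start in the RefSeq promoter table (GRCh38.p14), which had an entry for 8973 of the 11071 genes. It was found before 51 of 775 genes called lower (6.58%), 4 of 436 genes called higher (0.917%) and 199 of all 8973 (2.22%). In the ATF4 list it was found before 6 of the 32 genes with an entry (18.8%). Of all 35116 promoters listed, counted by promoter and not by gene, 3.14% held it. The 6 sites and the 2 found before cytosolic tRNA synthetases are shown on the strand that reads the core 5′ to 3′, with the core in capitals, because all 8 genes fell with shSIRT3-2.
CHAC1 (chr15:40953252-40953279, log2 −5.54): ctggcaggagTGATGCAAcggcagggga
JDP2 (chr14:75427996-75428021, log2 −4.44): tagccggggcTGATGCAAcccgtccc
ATF3 (chr1:212565206-212565233, log2 −3.82): aaggtcaggaTGATGGAAggctgtcata
ASNS (chr7:97872459-97872486, log2 −3.50): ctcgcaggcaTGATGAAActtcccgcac
SLC1A5 (chr19:46784894-46784921, log2 −1.90): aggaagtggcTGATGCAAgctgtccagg
AARS (chr16:70289676-70289703, log2 −1.67): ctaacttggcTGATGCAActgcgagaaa
CEBPG (chr19:33374061-33374088, log2 −1.59): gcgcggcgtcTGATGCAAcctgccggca
IARS (chr9:92293698-92293720, log2 −1.42): ggaggTGATGCAAcgcgctgaaa
The core lies 68 bases before the ASNS start, 209 before CHAC1, 191 before ATF3 and 97 before SLC1A5. These are matches of letters in a fixed window, and binding was not measured here.

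Enzymes that load amino acids onto tRNAs were measured for both compartments. Of the 23 cytosolic synthetases and scaffold proteins tested, 14 fell and none rose (median −1.0), where 8.8% of all genes fell. With any single library left out 13 to 15 fell, and under other settings 10 to 14. Of the 17 mitochondrial synthetases none was called, and their median was 0.25. TARS, which charges tRNA with threonine, read 131, 134 and 127 CPM with shCtr and 36.2, 38.2 and 38.2 with shSIRT3-2 (log2 −1.80, SE 0.08, adjusted p = 9.3e-05). CARS (cysteine) fell by 1.83, SARS (serine) by 2.02 and AARS (alanine) by 1.67. WARS (tryptophan), singled out after its value was seen, read 545, 674 and 333 CPM with shCtr and 53.1, 52.3 and 46 with shSIRT3-2 (log2 −3.3, the furthest fall of the list). Synthetases for glutamine, lysine and arginine were not called, with QARS at −0.01, KARS at 0.11 and RARS at 0.08.

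The machinery around eIF2, the factor whose phosphorylation governs ATF4 translation, had 4 of 16 genes lower and none higher. Over all genes 8.8% were lower and 4.93% higher, and PPP1R15A is also counted in the ATF4 list. EIF2S2, the beta subunit of eIF2, read 50.1, 40.3 and 47.4 CPM with shCtr and 14.2, 14.4 and 10 with shSIRT3-2 (log2 −1.84, SE 0.16, adjusted p = 0.00057). The phosphatase subunits PPP1R15A and PPP1R15B, which return eIF2 to its active state, fell by 1.19 and 0.84, and EIF2S3, the gamma subunit, by 0.59. EIF2S3 slipped under 1.5-fold without control replicate 2 or 3 or shSIRT3-2 replicate 1 (−0.58 to −0.56), and PPP1R15A was not called without control replicate 1 (adjusted p = 0.059). In the endoplasmic reticulum list 4 of 29 genes fell and 2 rose, where 8.8% of all genes fell and 4.93% rose. The other 23 were not called and the median was −0.06, so these counts are not read as a result about the list. XBP1, a factor of the unfolded protein response and of secretory cells, fell by 2.09 and HERPUD1, a degradation adaptor, by 1.41, whereas the chaperones HSPA5 (84.8, 108 and 95.9 CPM against 191, 194 and 238) and CALR rose by 1.11 and 1.08.

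Several of the largest falls lay outside amino acid metabolism. HOXB9, a homeobox factor, read 25.7, 25.1 and 26.1 CPM with shCtr and 0.334, 0.288 and 0.0678 with shSIRT3-2, the largest log2 fold change of any gene named (−6.40, SE 0.34, adjusted p = 9.3e-05). RGS8, a brake on G protein signalling, read 27.9, 17.1 and 13 CPM against 1.20, 1.14 and 0.203 (log2 −4.55, adjusted p = 0.0024), and without shSIRT3-2 replicate 3 its value was −3.86 (adjusted p = 0.00082). MAP6, which stabilizes microtubules, fell by 4.49, IL21R, the receptor for interleukin-21, by 4.38, SYTL1, a vesicle tether, by 4.06 and NHSL1 by 3.50. CDKN1A (p21, an inhibitor of cyclin-dependent kinases) read 4.44, 6.20 and 4.78 CPM with shCtr and 0.226, 0.362 and 0.356 with shSIRT3-2 (log2 −3.66, SE 0.22, adjusted p = 0.00013). In the BCL2 family 3 of 13 genes fell, against 8.8% of all genes, and 1 to 3 under other settings. They were BBC3 (PUMA, −1.41), PMAIP1 (NOXA, −2.59) and HRK (−1.62), which encode death-promoting members, while BCL2 (0.08) and MCL1 (−0.08) were not called. PMAIP1 was not called without control replicate 1 (adjusted p = 0.057) and stood at −3.34 without shSIRT3-2 replicate 3.

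Among transcription factors of the germinal centre and plasma cell, 9 of 24 fell and 1 rose, where 8.8% of all genes fell, and with any single library left out 7 to 9 fell. MYBL1, a germinal centre marker, read 130, 128 and 134 CPM with shCtr and 42.3, 57.3 and 44.4 with shSIRT3-2 (log2 −1.45, SE 0.12, adjusted p = 0.00048). MEF2C fell by 1.05, MEF2B by 1.3, PAX5 by 0.87, BCL6 by 0.76 and EBF1 by 0.66, although BCL6 was not called without control replicate 1 (adjusted p = 0.055). BACH2, named after its value was seen, fell by 1.58 (adjusted p = 0.0024). The riser was PRDM1, which read 0.216, 0.152 and 0.427 CPM with shCtr and 5.70, 4.12 and 46.9 with shSIRT3-2 (log2 4.91, SE 0.83, adjusted p = 0.0071). The third replicate stood apart, and without it PRDM1 rose by 3.83 (SE 0.34, adjusted p = 0.0012). IRF4, another plasma cell factor, was at most 0.0464 CPM in all 6 libraries and XBP1 fell, as given above. CD22, a B-cell receptor inhibitor, read 441, 527 and 200 CPM with shCtr and 102, 88.0 and 9.26 with shSIRT3-2 (log2 −3.04, SE 0.87, adjusted p = 0.039) and was not called without control replicate 1, 2 or 3 (adjusted p = 0.11, 0.12 and 0.0504). Without shSIRT3-2 replicate 3 it fell by 1.92 (adjusted p = 0.016). The summed level of the 10 B-cell markers was 3553 to 4223 CPM with shCtr and 1886 to 2924 with shSIRT3-2. Of the 10, 4 were called lower (PAX5, BCL6, EBF1 and CD22, all given above), where 8.8% of all genes were. With any single library left out 2 to 5 were lower, and under other settings 3 to 7. In such bulk RNA, fewer cells of a kind and less RNA per cell cannot be told apart.

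MYC, the growth-promoting transcription factor, read 261, 276 and 249 CPM with shCtr and 154, 192 and 96.5 with shSIRT3-2 (log2 −0.89, SE 0.23, adjusted p = 0.028), while MXD4, an antagonist in the same network, rose by 0.68. In the NF-kappaB list 3 of 18 genes fell, where 8.8% of all genes did, and under other settings 1 to 6, with TRAF1 at −0.92, CD40 at −1.23 and BIRC3 at −1.07. The immediate early genes EGR1 and FOS fell by 2.35 and 2.12. MYC was not called without any one of the control libraries or shSIRT3-2 replicate 1 (adjusted p from 0.056 to 0.089). FOS was not called without control replicate 1 or 2 or shSIRT3-2 replicate 1 or 3 (adjusted p from 0.056 to 0.085).

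The other largest rises mixed interferon-stimulated genes with genes of signalling and development. PLXND1, a semaphorin receptor, read 0.244, 0.253 and 0.306 CPM with shCtr and 5.64, 3.82 and 14.4 with shSIRT3-2 (log2 4.23, SE 0.44, adjusted p = 0.0011). BMP3, a secreted BMP-family ligand, read 0, 0.0101 and 0.065 CPM against 1.35, 1.06 and 19.2, and TNFRSF21, a death receptor, 0.169, 0.081 and 0.269 against 3.04, 1.78 and 32.0. In both, replicate 3 lay more than 10-fold above the other shSIRT3-2 libraries, and without it the log2 values were 3.41 (adjusted p = 0.0014) and 3.22 (adjusted p = 0.0032), in place of 4.71 and 4.46 with it. Without control replicate 2 neither was called (adjusted p = 0.052 and 0.059). ID2, an inhibitor of E proteins, rose evenly, from 2.21, 1.75 and 2.41 to 12.2, 10.3 and 13.4 CPM (log2 2.44, SE 0.17, adjusted p = 0.00025). CELF6, an RNA-binding protein, rose by 3.0 and CHST2, a sulfotransferase, by 2.15. IGLL5 rose by 2.49, but it shares sequence with the immunoglobulin lambda constant genes, so its count is uncertain.

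Of 40 interferon-stimulated genes, 12 rose and 1 (ISG20) fell, with a median of 1.17, where 4.93% of all genes were called higher. IFI6 read 146, 27.4 and 25.6 CPM with shCtr and 255, 276 and 360 with shSIRT3-2 (log2 2.65, SE 0.61, adjusted p = 0.019). RSAD2, which makes an antiviral nucleotide, read 40.2, 7.36 and 5.46 CPM against 64.4, 82.9 and 116 (log2 2.85, SE 0.67, adjusted p = 0.021). In both genes control replicate 1 lay between the other controls and the shSIRT3-2 libraries. Without this library 37 of the 40 rose, with a median of 1.77 and IFI6 at 3.47 (adjusted p = 0.0011). With control replicate 2 or 3 left out instead, 1 rose, and IFI6 (adjusted p = 0.071 and 0.0505) and RSAD2 (0.078 and 0.051) were not called. With any shSIRT3-2 library left out, 4 to 6 rose, and under the other settings 7 to 28. Summed over the list, the level was 3676, 1507 and 1030 CPM with shCtr and 3494, 3879 and 4378 with shSIRT3-2, so that control replicate 1 lay inside the range of the knockdown libraries. IFI27 went from 2.98, 0.719 and 0.789 to 13.4, 10.6 and 43.6 CPM (log2 3.82, SE 0.65, adjusted p = 0.0071) and was called without any single one of the 6 libraries. The core of the interferon-stimulated response element was found in the same promoter windows of 20 of 30 listed genes (66.7%), 5.5% of genes called higher and 3.39% of all genes tested. Both groups carried a virus, and what set control replicate 1 apart was not tested. In the MHC class I list 3 of 16 genes rose, against 4.93% of all genes, and 1 to 4 with any single library left out. They were CALR, the peptide transporter TAP1 (0.95) and HLA-B (0.84). TAP1 and HLA-B were not called without control replicate 2 (adjusted p = 0.059 and 0.061), nor HLA-B without shSIRT3-2 replicate 1 (0.061). Reads of HLA genes may be split between near-identical copies.

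**Figure D3:**
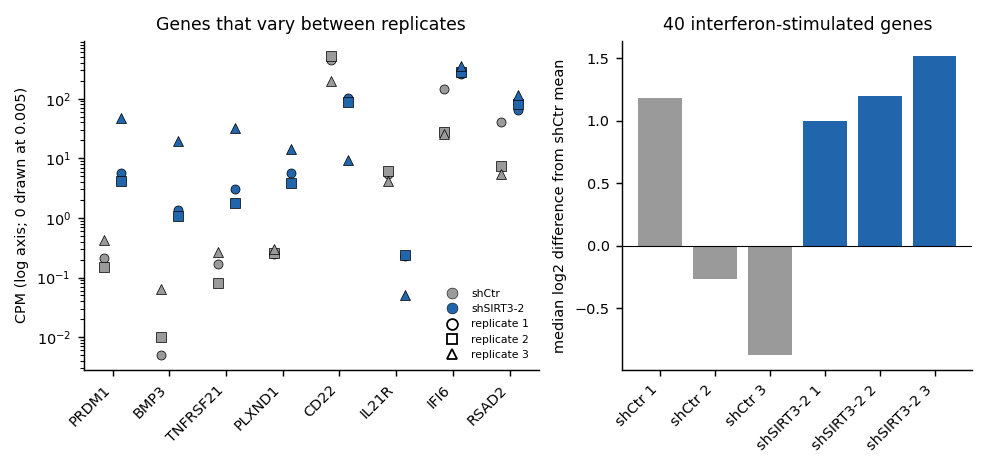
Left, CPM on a log axis for 8 genes in each library, grey for shCtr, blue for shSIRT3-2 and marker shape for the replicate; right, the median of 40 interferon-stimulated genes in each library as a log2 difference from the control mean. Replicate 3 of shSIRT3-2 is the highest point for PRDM1 (46.9 CPM), BMP3 and TNFRSF21 and the lowest for CD22 (9.26 CPM), and control replicate 1 reaches 1.18 on the right, as high as the shSIRT3-2 libraries at 1.00 to 1.52.

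Of 29 lysosome genes, 10 rose and 2 fell (median 0.49), where 4.93% of all genes rose and 8.8% fell. With any single library left out between 7 and 12 rose and at most 1 fell. NPC2, which carries cholesterol out of the lysosome, read 11, 10.4 and 11.6 CPM with shCtr and 24.6, 22.4 and 37 with shSIRT3-2 (log2 1.3, SE 0.18, adjusted p = 0.0041). The protease CTSA rose by 1.0 and the proton pump subunit ATP6V0D1 by 0.67. Of the 27 autophagy genes tested none was called, with a median of −0.07. In sterol and fatty acid synthesis 5 of 25 rose and none fell (median 0.35), among them LSS (44.1, 38.5 and 41 CPM against 108, 93.6 and 67.5, log2 1.10) and SQLE (0.70), which act one after the other in making lanosterol. Without shSIRT3-2 replicate 3, 10 of the 25 rose, and without any other single library 3 or 4. Of 16 heat shock genes 5 rose and 1 (HSPA13) fell, and with any single library left out 3 to 6 rose. DNAJA1 stood at 1.37, HSPH1 at 1.53 and DNAJB1 at 1.22. Of 21 small nucleolar RNA genes tested, all at low levels, 6 rose and 1 fell, but the number that rose ran from 1 to 7 with 1 library left out and from 0 to 24 under other settings, where the filter also changed how many were tested.

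The nuclear genes of mitochondrial respiration had few calls, where 8.8% of all genes were called lower and 4.93% higher. The small counts in the protease, glycolysis and cell cycle lists below are not read as results about those lists. None of 27 TCA cycle genes was called. Of 77 respiratory chain and ATP synthase genes 1 rose (COX7C, 35, 37.3 and 26.5 CPM against 74.8, 74.5 and 77.4, log2 1.21, adjusted p = 0.0014). Of 77 mitochondrial ribosomal genes 2 fell, MRPL1 by 0.77 and MRPL36 by 0.61, and of 75 cytosolic ribosomal genes 1 fell (RPS7, −0.70). Of 14 mitochondrial proteases and chaperones 2 fell and 1 rose, with LONP1, the matrix protease, at −1.16. SOD2, the matrix superoxide dismutase and a SIRT3 substrate, rose by 0.74 (adjusted p = 0.023). Of 28 genes of glycolysis and hypoxia 2 fell and 1 rose, with HIF1A at −0.94, DDIT4 as given above and TPI1 at 0.60. Of 39 cell cycle and replication genes 2 fell, CDT1 by 1.09 and E2F2 by 0.62, and none of 22 nucleotide synthesis genes was called. The calls of MRPL36, RPS7, SOD2, TPI1 and E2F2 were each lost without 4 or 5 of the 6 libraries taken singly, and that of CDT1 without control replicate 1 (adjusted p = 0.054).

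**Figure D4:**
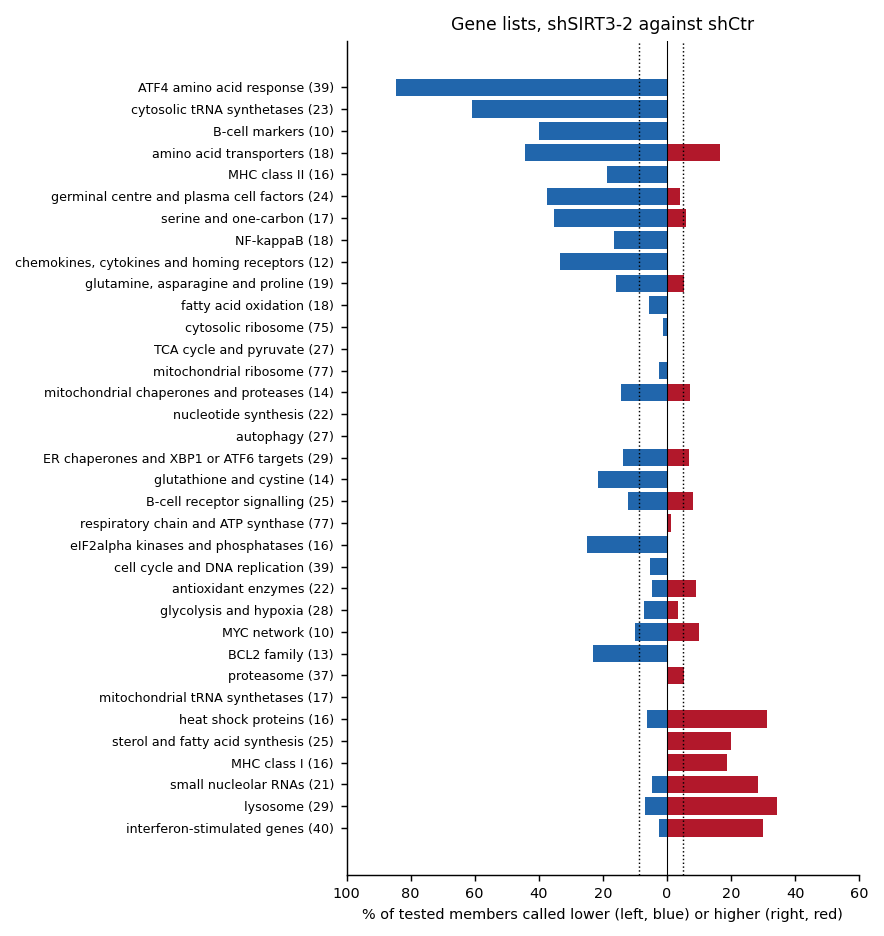
Percent of tested members called lower (blue, left) and higher (red, right) for each list shown, all with at least 10 tested genes, whose number is in parentheses, ordered by median log2 fold change; dotted lines mark the 8.8% and 4.93% of all genes. The ATF4 list and the cytosolic tRNA synthetases extend furthest to the left, and the lysosome, heat shock and interferon-stimulated lists lie far to the right, as does the small nucleolar RNA list, whose count was unstable between settings.

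The hairpins were then compared directly within Karpas422, with the control libraries used for the spread alone. The direct contrast of shSIRT3-2 with shSIRT3-1 called 1297 of 11235 genes (11.5%), 525 lower (4.67%) and 772 higher (6.87%) with shSIRT3-2. The count was 902 without shSIRT3-2 replicate 3. Over the control, shSIRT3-1 itself called 1802 of 11106 genes (16.2%). Of the 1520 genes called with shSIRT3-2, 402 differed between the hairpins. These were chosen for their response to shSIRT3-2, so the side on which they differ is not read as a result. Over the control, 37 of the 39 ATF4 list genes fell with shSIRT3-1 (median −1.90) and 33 with shSIRT3-2 (median −2.07). In the direct contrast 8 of them were lower and 3 higher with shSIRT3-2, and the median difference was −0.27. The log2 fold change of CHAC1 over shCtr was −5.54 with shSIRT3-2 and −4.09 with shSIRT3-1 (difference adjusted p = 0.060), and that of INHBE −5.63 and −3.57 (adjusted p = 0.012). The transporters SLC7A11 and SLC7A5 fell with shSIRT3-1, by 2.12 and 1.49, and differed from shSIRT3-2 by 1.55 and 0.83 (adjusted p = 0.0047 and 0.013). Both sets of fold changes use the same control libraries.

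The widest differences between hairpins among the genes named lay outside the ATF4 list. EGR1 read 71.8, 97.2 and 64.6 CPM with shCtr and 14.9, 18.6 and 12.2 with shSIRT3-2, a log2 fold change of −2.35, against 0.42 with shSIRT3-1 (difference −2.76, adjusted p = 0.00085). FOS showed the same arrangement (−2.12 and 0.67, difference adjusted p = 0.0053). RGS8, CD22 and IL21R were lower by 3.74, 3.25 and 2.79 with shSIRT3-2 than with shSIRT3-1. TNFRSF21, BMP3, PRDM1, PLXND1 and CDON, a Hedgehog coreceptor, were higher by 4.49, 4.36, 3.61, 3.6 and 2.20. Without shSIRT3-2 replicate 3 the differences of RGS8 and CD22 were −3.05 and −2.14, and those of TNFRSF21, BMP3 and PLXND1 were 3.25, 3.06 and 3.06, all still called, whereas PRDM1 was not (2.52, adjusted p = 0.058). Among 16 MHC class II genes, which present peptides to helper T cells, 11 were lower with shSIRT3-2 than with shSIRT3-1 and none higher (median difference −0.74), where 4.67% of all genes were lower. This fell to 4 of the 16 without shSIRT3-2 replicate 3 (median −0.52). Against the control 3 of the 16 fell with shSIRT3-2, HLA-DOB (50.6, 49.8 and 46.9 CPM against 23.9, 23.9 and 16.9, log2 −1.20), HLA-DMB (−1.45) and HLA-DQB1 (−0.77), of which HLA-DMB was not called without control replicate 1 or 2 (adjusted p = 0.055 and 0.060) and HLA-DQB1 not without any control library (0.069 to 0.083) or shSIRT3-2 replicate 3 (log2 −0.51). Their master activator CIITA was not called against the control (−0.43, adjusted p = 0.32). It was among the 11 genes lower with shSIRT3-2 than with shSIRT3-1. Of the lysosome list 6 of 29 were higher with shSIRT3-2 than with shSIRT3-1, including LAMP1 by 0.98 and NPC2 by 0.78, against 6.87% of all genes. With shSIRT3-2 replicate 3 left out 4 of the 29 were higher, and NPC2 slipped under 1.5-fold (0.56).

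The response to the same hairpin was last compared between lines, each against its own controls. On its own, OCI-LY1 had 375 genes called with shSIRT3-2 (3.41%), and HBL1 had 3251 (27.9%). Of the 1520 Karpas422 genes, 98 were called in the same direction in OCI-LY1, which is 6.45% of the Karpas422 list, and 680 in HBL1 (44.7%). The contrast of responses passed both thresholds for 435 of 11943 genes (3.64%) against OCI-LY1 and for 2060 of 12471 (16.5%) against HBL1, and among the 1520 for 247 and 452. In the ATF4 list none of the 37 genes tested in OCI-LY1 was called there (median −0.72) and 34 of 38 fell in HBL1 (median −2.04), but the response itself differed from Karpas422 for 5 genes in OCI-LY1 and for 18 in HBL1. The 5 were ATF5, CBS, JDP2, SLC38A1 and SLC38A2, each falling further in Karpas422, and ATF5 was not called without control replicate 1 or shSIRT3-2 replicate 3 of Karpas422 (adjusted p = 0.079 and 0.082). JDP2 had a log2 fold change of −4.44 in Karpas422, of 0.15 for OCI-LY1 and of −0.32 for HBL1, and the differences of −4.59 and −4.12 passed the test (adjusted p = 6.6e-05 and 1.4e-05).

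Other genes separated the lines as well. HOXB9 and MAP6 responses differed from OCI-LY1 by −6.36 and −4.49, and both were under the level filter in either other line's own fit. CDKN1A fell by 3.66 in Karpas422 and differed by −3.6 from OCI-LY1 (adjusted p = 0.0010) and by −2.42 from HBL1 (adjusted p = 0.00042). EGR1 and FOS rose in HBL1, by 2.08 and 3.57, and the responses differed by −4.42 and −5.69 (adjusted p = 0.00053 and 0.0012). ID2 rose in Karpas422 and stood at −0.32 (OCI-LY1) and 0.05 (HBL1) elsewhere, with differences of 2.76 and 2.39 that passed the test. PRDM1 also differed, by 4.47 from OCI-LY1 and 4.67 from HBL1. Without shSIRT3-2 replicate 3 these differences were 3.39 and 3.59, both called, and without control replicate 1 that from OCI-LY1 was not called (4.40, adjusted p = 0.057). MEF2C, which fell by 1.05 in Karpas422, had a difference of −1.77 from OCI-LY1 (adjusted p = 0.00044), and MEF2B fell further in HBL1 than in Karpas422, by 2.19 (adjusted p = 0.0065). The interferon-stimulated list differed from HBL1 for 2 of 40 genes, IFI27 and STAT2, where 16.5% of all genes did. From OCI-LY1 it differed for 4, where 3.64% of all genes did. Without control replicate 1 of Karpas422 it differed for 19 and 24 genes, and without shSIRT3-2 replicate 3 for 3 and 3. Over all genes these fits called 1619 of 12471 (HBL1) and 294 of 11943 (OCI-LY1) without control replicate 1. Without shSIRT3-2 replicate 3 they called 1981 and 361.

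**Figure D5:**
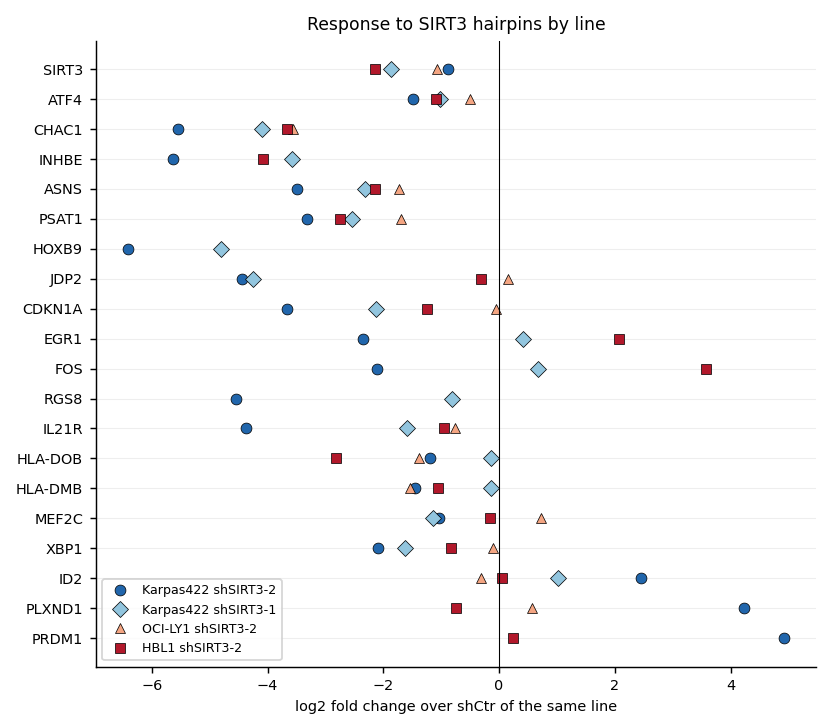
Log2 fold change over the control of the same line for 20 genes named in the text, for Karpas422 shSIRT3-2 (dark blue circles), Karpas422 shSIRT3-1 (light blue diamonds), OCI-LY1 shSIRT3-2 (orange triangles) and HBL1 shSIRT3-2 (red squares); a missing symbol is a gene under the level filter there. EGR1 and FOS lie at −2.35 and −2.12 with Karpas422 shSIRT3-2 and at 2.08 and 3.57 in HBL1, and SIRT3 itself lies at −0.88 with Karpas422 shSIRT3-2.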

How the data were processed

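RNA-seq of 6 Karpas422 libraries (3 shCtr, 3 shSIRT3-2) was compared; the other Karpas422 libraries and the shCtr and shSIRT3-2 libraries of OCI-LY1 and HBL1 served for the comparisons between hairpins and lines. The authors aligned reads to hg19 with STAR and assigned them to RefSeq genes with Rsubread; versions and strand setting are not given in the sources used here. The deposited values are named FPKM, but each lay within 0.05 of a read of a whole multiple of 1 step per library whatever the gene's length, so they are CPM of a library total of which 44.5% to 45.6% lay on listed genes. Levels are therefore not compared between genes.

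Values were tested as log2(CPM + 0.1) with limma 3.58.1 (R 4.3.3) with a variance trend; fold changes of low genes are understated. Calls needed more than a 1.5-fold change together with an adjusted p (Benjamini-Hochberg, over all genes tested) below 0.05; tests were two-sided. On counts simulated with the same relative spread for every gene, 92.5% of 2-fold changes were called and 5 unchanged genes. Libraries that stood apart were not simulated, so these are not error rates of the real comparison. Genes were named by rule: SIRT3, ATF4, the 15 largest falls and rises with a mean of at least 5 CPM, the 4 smallest adjusted p of each list and the 5 largest differences each way. The comparison, lists and rule were chosen with earlier results of these data known. Gene coordinates are from GENCODE v44 on GRCh37 and promoters from RefSeq on GRCh38.p14. Alternatives were other pseudocounts, filters, scalings, GC and length correction, the replicate block, fewer or more libraries, and edgeR 4.0.16 and DESeq2 1.42.0 on the recovered reads. A few genes and 1 list are not reported here.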

Additional observations from a re-analysis of the deposited data

Results flagged for a closer look

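Tests of the difference itself, all in the limma fits described above, picked out these genes among those called in Karpas422 with shSIRT3-2. Between the hairpins in Karpas422, RGS8, CD22, IL21R, FOS and EGR1 had differences (shSIRT3-2 minus shSIRT3-1, log2) of −3.74, −3.25, −2.79, −2.79 and −2.76. TNFRSF21, BMP3, PRDM1, PLXND1 and CDON were higher by 4.49, 4.36, 3.61, 3.6 and 2.20, and SIRT3 by 0.99. With shSIRT3-2 replicate 3 left out, PRDM1 was not called (2.52, adjusted p = 0.058), and the other 10 genes were still called, with TNFRSF21 at 3.25, BMP3 at 3.06 and RGS8 at −3.05.

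For the response to shSIRT3-2 in Karpas422 minus that in OCI-LY1, HOXB9, JDP2, MAP6, SDC3 and RGS8 had differences of −6.36, −4.59, −4.49, −4.44 and −3.81, and BMP3, PRDM1, PLXND1, FCRL3 and IGLL5 differences of 4.56, 4.47, 3.67, 3.21 and 3.12. Without control replicate 1 of Karpas422, BMP3 and PRDM1 were not called (adjusted p = 0.089 and 0.057). All 10 were called without shSIRT3-2 replicate 3, with BMP3 at 3.26, PRDM1 at 3.39 and SDC3 at −5.29. For the response in Karpas422 minus that in HBL1, FOS, RGS8, MAP6, EGR1 and JDP2 had differences of −5.69, −4.46, −4.45, −4.42 and −4.12, and PLXND1, PRDM1, BMP3, CHST2 and COL9A3 differences of 4.97, 4.67, 4.66, 3.28 and 3.09. For COL9A3, a collagen chain, the positive difference means a smaller fall, with −1.07 in Karpas422 and −4.16 in HBL1. These 10 were also called without shSIRT3-2 replicate 3, with BMP3 at 3.36 and PRDM1 at 3.59. HOXB9, MAP6 and RGS8 were under the level filter in the other lines' own fits, as were PRDM1 in OCI-LY1 and BMP3 in HBL1, that is, at 1 CPM or more in fewer than 3 of that line's 6 libraries, so these differences rest mainly on the change in Karpas422. For SIRT3 the difference from HBL1 was 1.27. Single samples far from their group were not tested for, since each group held 3 libraries. The causes of these differences were not tested.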

How the results depend on the processing

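Under the other pseudocounts, filters, scalings, GC and length correction, library sets, edgeR and DESeq2, the number of genes called with shSIRT3-2 ran from 1120 to 1765 and the ATF4 count from 31 to 35. Leaving out 1 library gave 985 to 1456 called genes, 603 to 951 lower and 375 to 563 higher, with 27 to 34 ATF4 genes and SIRT3 at −0.997 to −0.752. The low ends of the total and of the genes called lower came without shCtr replicate 2, and without shCtr replicate 1 639 were lower. Leaving out a whole replicate number gave 288 (without replicate 1) to 1683 called, 205 to 1035 lower, 83 to 648 higher and 25 to 31 ATF4 genes. SIRT3 ranged from −0.98 to −0.72 and was not called without replicate 1 or 2. The same left 50 to 950 genes that differed between the hairpins, 1 to 152 whose response differed from OCI-LY1 and 34 to 2542 from HBL1, so these counts depend on which replicate is left out. Without Karpas422 shCtr replicate 1 or shSIRT3-2 replicate 3 alone, chosen after seeing the data, they were 1201 and 902, 294 and 361, and 1619 and 1981. With the gene set kept and 1 library left out, a setting chosen after seeing the data, 13 to 32 of 130 entries for named genes missed the threshold and none turned direction. Replicate numbers were not used to pair the samples in the main fit. Same-numbered deviations correlated at 0.31, −0.01 and 0.23, and differently numbered ones at −0.31 to 0.23. With 3 libraries per group these values do not settle whether the numbers pair the samples. With the replicate block 1620 genes were called, 1497 differed between the hairpins, 570 from OCI-LY1 and 2511 from HBL1. The edgeR fit for the comparison with OCI-LY1 was not run, because 2 of its libraries did not pass a separate check of read recovery.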
